A study of Mus musculus with 12 samples.

Results

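Prostaglandins and leukotrienes are lipid mediators made from arachidonic acid, and the 10 mouse genes described here act at successive steps of that pathway. They are Pla2g4a, Ptgs1, Ptgs2, Ptges, Hpgds, Ptger2, Ptger4, Alox5, Alox5ap, and Ltc4s. They were chosen by name for their place in the pathway, by a rule that uses no measured value, from 43626 genes counted in each library. All 10 passed the filter on low counts, which left 14308 genes for testing. The libraries were made from poly(A) RNA of bone marrow–derived macrophages (BMDMs), which are macrophages grown in culture from mouse marrow. There were 12 libraries, 3 each with the vehicle (PBS), with 3′SL, with LPS, and with both (LPS + 3′SL). LPS is bacterial lipopolysaccharide, which activates TLR4. 3′SL is 3′-sialyllactose, a sialylated sugar of human milk, and the labels call its groups HMO and LPS+HMO. LPS was given at 10 ng/mL and 3′SL at 100 µg/mL, and the cells were taken after 6 hours. The strain, genotype, and age of the marrow donors, and whether libraries of a condition came from separate mice, are not given in the sources used here. A figure legend of the study speaks of independent biological duplicates for this RNA-Seq, while other panels of that figure give n = 3. The legend thus does not settle whether all 3 libraries of a condition are independent. The p-values measure the spread between these libraries, and whether it includes differences between mice is not known.

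Arachidonic acid is held in membrane phospholipids and is set free by phospholipases, of which the cytosolic enzyme encoded by Pla2g4a is the best known in macrophages. The cyclooxygenases COX-1 (Ptgs1, made by many resting cells) and COX-2 (Ptgs2, an inducible gene) turn it into prostaglandin H2, which microsomal prostaglandin E synthase (Ptges) converts to prostaglandin E2 and hematopoietic prostaglandin D synthase (Hpgds) to prostaglandin D2. The receptors of prostaglandin E2 include EP2 and EP4 (Ptger2 and Ptger4), which raise cyclic AMP. In the other branch, 5-lipoxygenase (Alox5), helped by its activating protein FLAP (Alox5ap), starts leukotriene synthesis, and leukotriene C4 synthase (Ltc4s) makes the first cysteinyl leukotriene. Induction of COX-2 and of microsomal prostaglandin E synthase is a textbook response of macrophages to LPS.

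Pla2g4a and Ptgs2, which encode the enzymes that free and oxygenate arachidonic acid, are neighbours. In the GENCODE annotation of GRCm38, Pla2g4a (ENSMUSG00000056220) lies on the minus strand at chr1:149829618-149961290 and Ptgs2 (ENSMUSG00000032487) on the plus strand at chr1:150100031-150108227, so that their starts face away from each other 138.7 kb apart. Ptges (ENSMUSG00000050737) lies at chr2:30889471-30929863 and Ptgs1 (ENSMUSG00000047250) at chr2:36230426-36252272. Hpgds (ENSMUSG00000029919, chr6:65117293-65144908) and Alox5 (ENSMUSG00000025701, chr6:116410077-116461178) share chromosome 6. Ptger2 (ENSMUSG00000037759) is at chr14:44988195-45003820, Ptger4 (ENSMUSG00000039942) at chr15:5206661-5244187, Alox5ap (ENSMUSG00000060063) at chr5:149264767-149288153, and Ltc4s (ENSMUSG00000020377) at chr11:50236461-50238616. All are annotated as protein coding, and a gene's value covers reads over all of its exons. Exons of 5 of the genes share sequence with a gene on the opposite strand, and whether the counting used the strand is not given in the sources used here. The share of words of 50 nucleotides found in another gene was 15.2% for Ltc4s (Gm26542), 14.4% for Ptger4 (Gm15937 and Ttc33), 6.8% for Alox5ap (Gm19719), 3.89% for Ptger2 (Gm17173 and Gm49364), and 2.63% for Ptgs1 (Gm43621). It was 0 for Pla2g4a, Ptgs2, Ptges, and Alox5.

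The promoters of both cyclooxygenase genes, Ptgs2 and Ptgs1, and of the prostaglandin synthase genes Ptges and Hpgds are shown because 1 gene of each pair rose and the other fell with LPS. The windows are from RefSeq (GRCm38.p6), run 5′ to 3′ from 250 bases before to 50 bases after the annotated start, and were found for 9 of the 10 genes (not for Alox5ap). Capitals mark matches, on either strand, to a fixed list of motif letters.
Ptgs2 (chr1:150099781-150100080, plus strand): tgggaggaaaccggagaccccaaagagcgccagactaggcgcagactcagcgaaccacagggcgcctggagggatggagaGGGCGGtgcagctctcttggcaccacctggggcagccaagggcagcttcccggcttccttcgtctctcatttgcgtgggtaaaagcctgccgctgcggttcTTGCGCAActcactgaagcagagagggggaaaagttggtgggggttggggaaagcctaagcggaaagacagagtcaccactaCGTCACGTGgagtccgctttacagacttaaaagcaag
Ptgs1 (chr2:36230176-36230475, plus strand): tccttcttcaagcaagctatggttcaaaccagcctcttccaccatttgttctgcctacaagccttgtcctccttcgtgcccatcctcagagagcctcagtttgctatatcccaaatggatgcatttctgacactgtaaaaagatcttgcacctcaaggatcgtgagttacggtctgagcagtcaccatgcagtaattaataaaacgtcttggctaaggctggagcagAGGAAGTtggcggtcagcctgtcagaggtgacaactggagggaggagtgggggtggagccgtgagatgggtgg
Ptges (chr2:30903248-30903547, minus strand): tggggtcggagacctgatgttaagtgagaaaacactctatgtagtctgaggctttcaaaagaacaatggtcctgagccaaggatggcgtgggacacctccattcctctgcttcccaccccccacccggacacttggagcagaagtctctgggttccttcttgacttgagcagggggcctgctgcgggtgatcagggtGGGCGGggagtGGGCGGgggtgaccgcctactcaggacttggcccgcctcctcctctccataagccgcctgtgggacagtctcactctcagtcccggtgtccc
Hpgds (chr6:65144681-65144980, minus strand): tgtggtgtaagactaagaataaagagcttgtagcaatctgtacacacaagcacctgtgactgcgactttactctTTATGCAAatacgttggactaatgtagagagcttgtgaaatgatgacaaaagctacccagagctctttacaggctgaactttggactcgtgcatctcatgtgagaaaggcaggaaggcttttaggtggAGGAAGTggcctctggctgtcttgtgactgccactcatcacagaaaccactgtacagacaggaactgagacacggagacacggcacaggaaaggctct
The Ptgs2 window held a GC box (GGGCGG) 170 bases before the start, a C/EBP match (TTGCNNAA) 69 bases before it, and a short CRE (CGTCA) that overlapped an E-box (CACGTG) after it. The Ptges window, which lies within the span of the GENCODE gene, held 2 GC boxes, 53 and 42 bases before the start. Ptgs1 held a PU.1 match (AGGAAGT) 23 bases before the start, and Hpgds held a PU.1 match 48 bases and a C/EBP match 176 bases before it. Over all 32851 RefSeq promoter windows of the same length, 35.7% held the GC box, 20.8% the short CRE, 10.8% the C/EBP letters, 9.35% the PU.1 letters, and 7.15% the E-box. The TATA box (TATAAA, 13.6%), AP-1 (TGANTCA, 7.81%), and NF-kB (4.51%) letters were also searched, and none of these 4 windows held them. The Ptgs2 and Ptges windows had a G and C content of 59.3% and 60%, against 50.7% for Ptgs1, 46.7% for Hpgds, and a median of 52.7% over all windows. A match is a string of letters in a window, and binding was not measured here.

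Between 20411741 and 26851890 reads were counted on genes per library. Levels are given as CPM (a gene's reads per 1000000 counted reads of the library), with library sizes scaled by TMM factors, and where genes are compared with each other, per kb of exons. The 10 macrophage markers examined were present in every library, with a summed level of 19311.5 to 31638 CPM. Once condition means were taken out, 3 sets of 4 libraries could be seen, and every set held each condition once. These sets were found from the counts and match runs of consecutive numbers in the labels, where nothing says what the numbers stand for. Residuals correlated at 0.596 within sets and at −0.346 between them. Libraries are therefore numbered 1 to 3 by set, and changes within sets are given for the results that turn on them. Over all genes, set 3 stood furthest apart in every condition. Between 2 libraries of a condition, chi-square per gene was 14.5 to 18.8 for sets 1 and 2. It was 59.6 to 105 for pairs with a set 3 library. The main test, an edgeR fit with 1 mean per condition, does not take the sets into account. With the sets as a block, the coefficient of variation between libraries, estimated in common over genes, was 0.133 in place of 0.310. Because the sets were found from these same residuals, the correlations and the smaller spread favour them in part by construction. The p-values of the blocked fit carry the same limit. The sets also differed in their summed stromal markers (509 to 586 CPM in set 1, 21.6 to 32.9 in set 2, and 50.6 to 85.5 in set 3) and neutrophil markers (139 to 221, 264 to 447, and 302 to 1015 CPM). The part of these markers in the results was not tested.

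LPS moved genes at several steps of the pathway, in both directions. Of the 10 genes, 4 rose (Ptgs2, Ptges, Pla2g4a, and Ptger4) and 2 fell (Hpgds and Ptgs1) with LPS against PBS. Here and throughout, called means that edgeR's quasi-likelihood test, adjusted over all genes by the Benjamini-Hochberg method, gave an adjusted p below 0.05 with no less than a 1.5-fold difference. By the same rule, 18.3% of all genes rose and 20.2% fell. The median log2 change of the 10 genes was 0.0011, against −0.061 over all genes. In RNA from whole cultures, fewer cells of a type and less RNA per cell cannot be told apart.

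**Figure D1:**
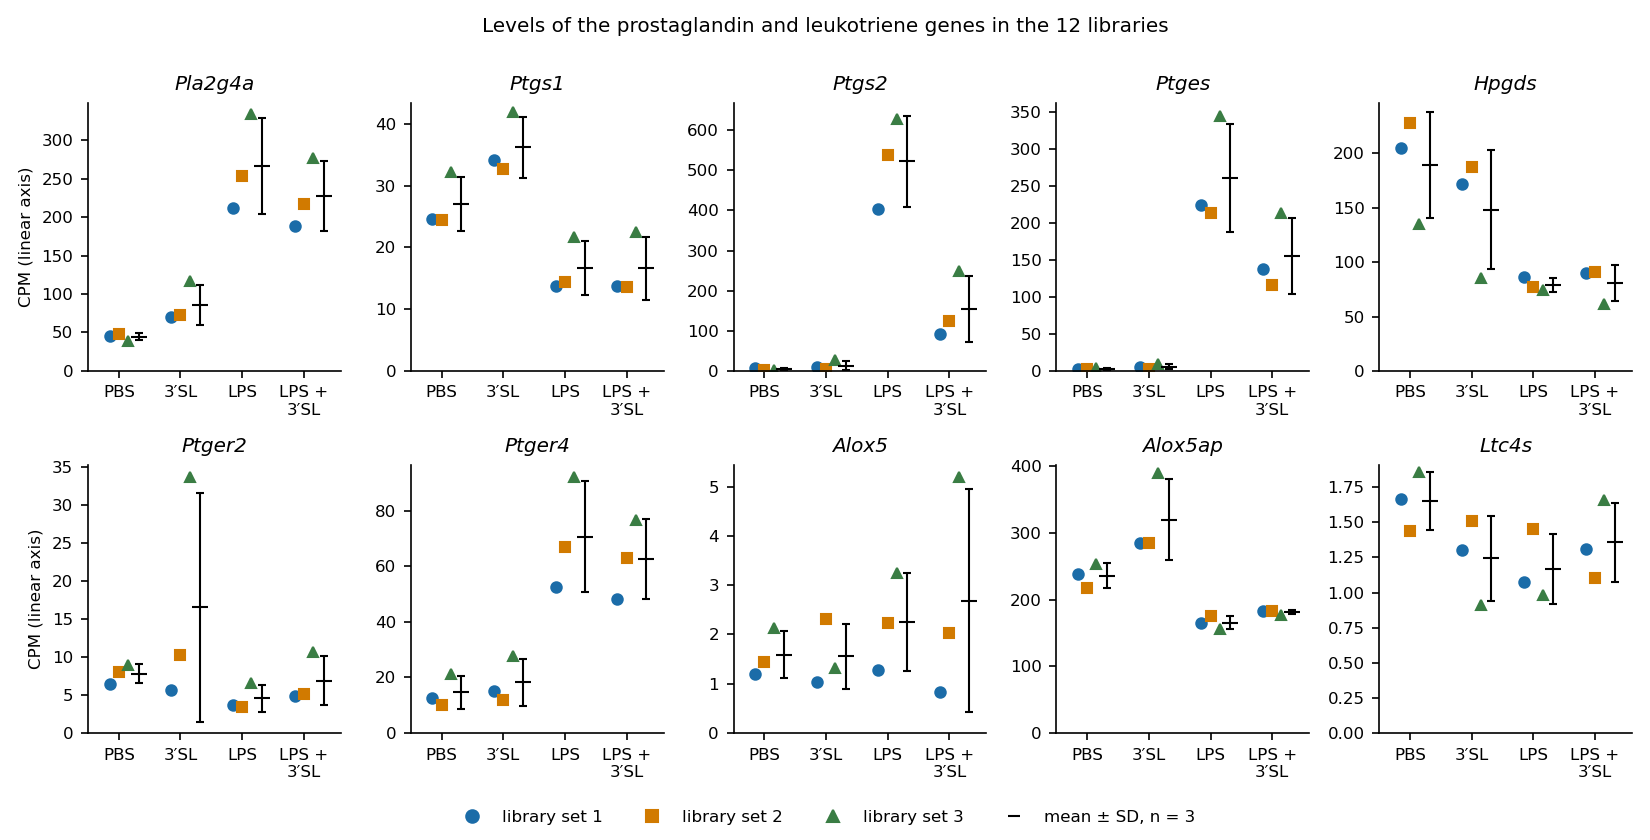
Level of each gene in CPM (vertical axis, linear, from 0) in the 12 libraries, by condition. Symbols mark the 3 library sets and bars the mean ± SD of 3 libraries. Ptgs2 stood at 403 to 628 CPM in the 3 LPS libraries, above the 92.8 to 249 CPM of the 3 LPS + 3′SL libraries, whereas Ptgs1 had a mean of 16.6 CPM in both.

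Ptgs2, the COX-2 gene, was low at rest, with 6.32, 1.75, and 3.07 CPM in the PBS libraries, and stood at 403, 538, and 628 CPM with LPS. Every LPS library lay far above every PBS library. The log2 fold change was 7.13 ± 0.82 (SE, n = 3 per condition, adjusted p = 4.67e-05), and within sets it ranged from 5.99 to 8.25. Ptges, the synthase that follows COX-2, had 2.12, 2.03, and 4.15 CPM with PBS and 224, 214, and 345 CPM with LPS. Its log2 fold change was 6.56 ± 0.54 (adjusted p = 4.91e-06), and all 3 sets gave values between 6.37 and 6.71. Pla2g4a, upstream of both, was already present at 45.9, 48.0, and 39.4 CPM with PBS and reached 212, 254, and 334 CPM with LPS. It rose by 2.59 ± 0.24 on the log2 scale (adjusted p = 1.2e-05), about 6.01-fold between the means.

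Ptgs1 and Hpgds fell with LPS. Ptgs1, the COX-1 gene, was at 24.5, 24.5, and 32.1 CPM with PBS and at 13.8, 14.4, and 21.7 CPM with LPS. The libraries did not overlap, and the fall of 0.70 ± 0.24 on the log2 scale passed both thresholds (log2 fold change −0.70, adjusted p = 0.0316). This call was lost when PBS library 3, LPS library 1, or LPS library 2 was left out, with adjusted p of 0.105 to 0.107, and with DESeq2 size factors in place of TMM (adjusted p = 0.051). With the library set as a block, Ptgs1 was at −0.72 (adjusted p = 9.99e-05), and it was still called without set 1, 2, or 3 (−0.66, −0.70, and −0.79). Hpgds, the prostaglandin D2 synthase of hematopoietic cells, stood at 205, 228, and 135 CPM with PBS and at 86.4, 77.1, and 74.3 CPM with LPS (log2 fold change −1.26 ± 0.29, adjusted p = 0.00434). Its PBS libraries were spread widely, but the lowest of them was above all LPS libraries.

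Of the 2 prostaglandin E2 receptor genes among the 10, 1 was called. Ptger1, a further prostaglandin E receptor gene outside the 10, had means of 66.6 CPM with PBS and 46.5 CPM with LPS. Its log2 fold change of −0.52 ± 0.087 passed the adjusted p (0.000622) but not the 1.5-fold minimum. Ptger4, the EP4 receptor, rose from 12.6, 10.0, and 21.3 CPM with PBS to 52.7, 67.1, and 92.3 CPM with LPS (log2 fold change 2.27 ± 0.37, adjusted p = 0.000548). Ptger2, the EP2 receptor, was at 6.46, 8.0, and 8.97 CPM with PBS and at 3.66, 3.39, and 6.63 CPM with LPS. The libraries of Ptger2 overlapped, and its log2 fold change of −0.78 ± 0.58 did not pass the test (adjusted p = 0.301). With the library set as a block, the same gene had a log2 fold change of −0.87 and passed (adjusted p = 0.0419), but not with the block without set 1 or set 2 (adjusted p = 0.0649 and 0.273).

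None of the 3 leukotriene genes was called with LPS against PBS. Alox5ap, the FLAP gene, was at 238, 217, and 253 CPM with PBS and at 165, 175, and 156 CPM with LPS. The libraries did not overlap, and its log2 fold change of −0.51 ± 0.13 passed the adjusted p (0.0076) but not the 1.5-fold minimum. Alox5, the enzyme that FLAP serves, had 1.21, 1.44, and 2.12 CPM with PBS and 1.27, 2.23, and 3.25 CPM with LPS, and its change did not pass (0.50 ± 0.60, adjusted p = 0.542). Ltc4s, with 1.67, 1.44, and 1.86 CPM at rest and 1.07, 1.45, and 0.982 CPM with LPS, did not pass either (−0.49 ± 0.31, adjusted p = 0.214). Over all 12 libraries, Alox5 rested on 17 to 97 reads and Ltc4s on 16 to 58 reads per library.

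**Figure D2:**
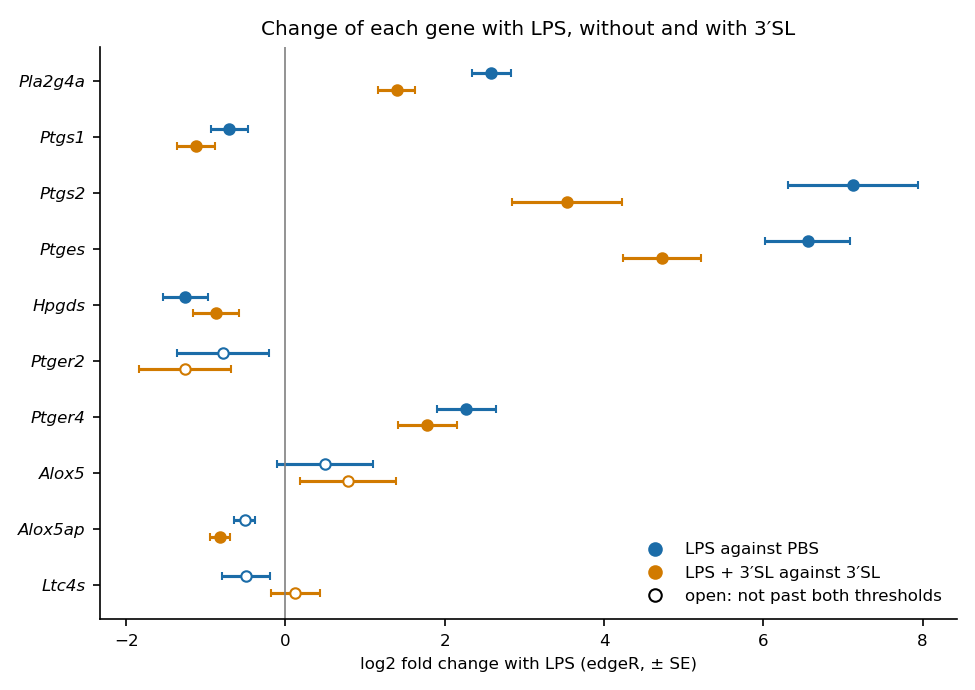
Log2 fold change of each gene with LPS (horizontal axis) without 3′SL (blue, LPS against PBS) and with it (orange, LPS + 3′SL against 3′SL). Bars are the standard errors of the edgeR fit with 3 libraries per condition, and open symbols did not pass both thresholds. Ptgs2 was at 7.13 without and 3.53 with 3′SL, and Ptges at 6.56 and 4.73.

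The size of the falls depends on how libraries are scaled. When total counts were used in place of TMM factors, the median of all genes with LPS moved from −0.061 to −0.71, and 9 of the 10 genes were called, 4 higher and 5 lower (Ptger2, Alox5ap, and Ltc4s in addition), while 1535 of all genes were higher and 6657 lower. Taken against that median, the members' total-count changes were close to those above, with 7.15 for Ptgs2, 6.60 for Ptges, 2.62 for Pla2g4a, 2.31 for Ptger4, −0.66 for Ptgs1, and −1.20 for Hpgds. Alox5 was below 0 before this centring, at −0.19, and above it after, at 0.52. The direction of the 6 called genes was the same under each scaling tried.

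LPS also moved these steps in cells that received 3′SL. Against 3′SL alone, 4 genes rose and 3 fell, with 14.3% of all genes rising and 14.8% falling by the same rule. Pla2g4a rose by 1.40 ± 0.23 (adjusted p = 0.000848), Ptgs2 by 3.53 ± 0.69 (adjusted p = 0.00223), Ptges by 4.73 ± 0.49 (adjusted p = 3.88e-05), and Ptger4 by 1.78 ± 0.37 (adjusted p = 0.0032) on the log2 scale. Ptgs1 fell, with a log2 fold change of −1.12 ± 0.24 (adjusted p = 0.00373), as did Alox5ap (−0.82 ± 0.13, adjusted p = 6e-04). Hpgds was also called (−0.87 ± 0.29, adjusted p = 0.0347), but its call was lost when 3′SL library 1 or 2 or any of the 3 LPS + 3′SL libraries was left out (adjusted p of 0.0562 to 0.135), and when the other conditions were left out of the fit (adjusted p = 0.0775). With the set block, Hpgds was at −0.83 (adjusted p = 0.000785) and stayed called without set 1, 2, or 3 (adjusted p = 0.0257, 0.0153, and 7.54e-07). Ptger2 (−1.26 ± 0.58, adjusted p = 0.114), Alox5 (0.78 ± 0.60, adjusted p = 0.352), and Ltc4s (0.13 ± 0.31) did not pass. Without 3′SL library 1, Ptger2 passed (log2 fold change −1.67, adjusted p = 0.0312), and it also passed with the set block (−1.07, adjusted p = 0.0152), but not with the block without set 2 (−1.10, adjusted p = 0.0924). Without 3′SL library 3, its log2 fold change was −0.19 (adjusted p = 0.766). The median change of the 10 genes here was 0.45, against −0.067 over all genes.

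Because a ratio of 2 genes in the same library does not depend on scaling, the steps were also compared within libraries, per kb of exons. The Ptgs2 to Ptgs1 ratio had a median of 0.0814 in PBS libraries, 0.249 with 3′SL, 24.7 with LPS (24.6 to 31.6), and 7.71 with LPS + 3′SL (5.74 to 9.36). COX-1 transcripts were thus the more abundant in every library without LPS and COX-2 transcripts in every library with it. Between the 6 libraries with LPS and the 6 without, the mean log2 ratio differed by 6.51, for which an exact 2-sided permutation test gave p = 0.00216, the smallest it can give, and 0.00324 after adjustment over 3 ratios. The Ptges to Hpgds ratio, which sets the prostaglandin E2 synthase against the D2 synthase, had medians of 0.0171, 0.0488, 4.53, and 2.49 in the same order of conditions. Its log2 difference with LPS was 6.75, with the same exact permutation p = 0.00216. The Alox5ap to Alox5 ratio was above 98 in all 12 libraries, and its log2 value was lower with LPS by −1.12 (exact permutation p = 0.0368). That difference ranged from −1.40 to −0.87 when single libraries were left out, and its p rose above 0.05 in 6 of the 12 cases. These permutations do not take the library sets into account. Within sets, this ratio was lower with LPS in 6 of 6 pairs of libraries, by log2 differences of −3.11 to −0.32.

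**Figure D3:**
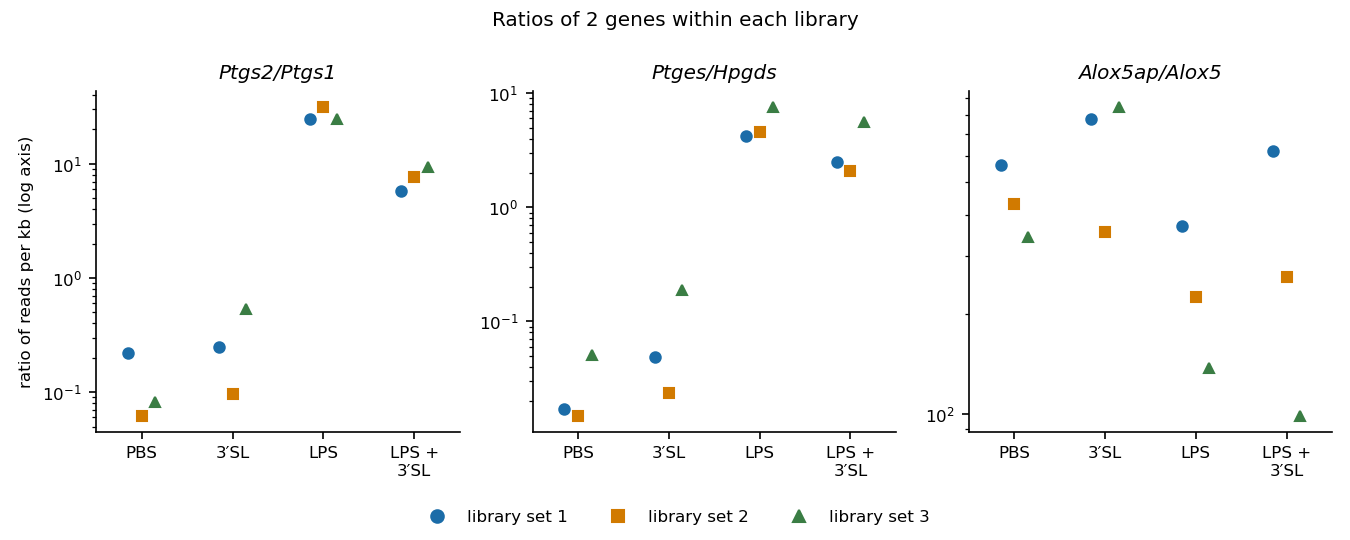
Ratio of reads per kb of 2 genes within each library (vertical axis, log scale), by condition, with symbols for the 3 library sets. The Ptgs2 to Ptgs1 ratio was 0.0614 to 0.536 in the 6 libraries without LPS and 5.74 to 31.6 in the 6 with it.

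The genes were also ordered by level per kb of exons. With PBS, Alox5ap led with 166 CPM per kb, followed by Hpgds with 29.4, and then by Ptgs1 and Pla2g4a with 6.96 and 6.95, whose libraries overlapped. Ptger4, Ltc4s, Ptger2, Ptgs2, and Ptges came next, each overlapping its neighbour, at 2.20 down to 0.704, and Alox5 was lowest at 0.387. With 3′SL, Alox5ap led with 225 CPM per kb, Hpgds (23.0) and Pla2g4a (13.5) overlapped below it, and Ptgs1 followed with 9.32. Ptger2, Ptgs2, Ptger4, Ptges, and Ltc4s came next, each overlapping its neighbour, at 3.19 down to 1.23, and Alox5 was again lowest at 0.378. With LPS, Alox5ap (117) and Ptgs2 (114) overlapped at the top, above Ptges (66.4) and Pla2g4a (41.7). Hpgds (12.3) and Ptger4 (10.6) overlapped below them, followed by Ptgs1 (4.28), and by Ltc4s, Ptger2, and Alox5 between 1.15 and 0.548. With LPS + 3′SL, Alox5ap (127) stood alone at the top, and Ptges (39.5), Pla2g4a (35.6), and Ptgs2 (33.9) overlapped below it.

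3′SL alone left the prostaglandin and leukotriene genes without a change that passed the main test, which does not take the library sets into account. The values of several lay higher than with PBS. None of the 10 genes was called in 3′SL against PBS by edgeR, where 0% of all genes were. At an unadjusted p under 0.05, 4 genes remained (Pla2g4a, Ptgs2, Ptges, and Alox5ap), against 10.1% of all genes. DESeq2 called 1 of the 10 (Pla2g4a, adjusted p = 0.0228), against 0.617% of all genes. With the library set as a block, edgeR called 2 (Pla2g4a and Ptges), against 2.84% of all genes. The 3′SL libraries lay wholly above the PBS libraries for 3 genes (Pla2g4a, Ptgs1, and Alox5ap) and wholly below for none, and 17.5% of all genes did not overlap in either direction. The median log2 change of the 10 genes was 0.43, against 0.0013 over all genes.

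Pla2g4a was at 69.5, 73.3, and 116 CPM with 3′SL, each above its 3 PBS values, a log2 fold change of 0.96 ± 0.23 (unadjusted p = 0.0017, adjusted p = 0.266, 95% interval 0.45 to 1.47). Its blocked value was 0.91 (adjusted p = 0.0126), and its changes within sets 1 to 3 were 0.60, 0.61, and 1.56. Ptgs2 was at 10.0, 3.70, and 26.5 CPM with 3′SL, so that set 3 held a far higher value than the others, set 1 also lay above every PBS library, and set 2 lay within the PBS range. Its log2 fold change was 1.84 ± 0.67 (adjusted p = 0.428, 95% interval 0.36 to 3.32), and 0.84 when 3′SL library 3 was left out. Ptges was at 5.10, 2.67, and 9.78 CPM with 3′SL (1.08 ± 0.46, adjusted p = 0.482, blocked value 1.04 with adjusted p = 0.0145), and 0.46 without the same library. Ptger2 showed that library most plainly, at 5.66, 10.3, and 33.7 CPM. Its log2 fold change of 1.08 (adjusted p = 0.576) became −0.0083 when 3′SL library 3 was left out. Ptger4 was at 15.1, 11.8, and 27.8 CPM, and set 3 held its highest value with PBS too. Its log2 fold change was 0.32, its changes within sets were 0.27, 0.24, and 0.38, and the estimate was −0.16 when 3′SL library 3 alone was left out.

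Among the others, Alox5ap was at 285, 284, and 390 CPM with 3′SL (0.44 ± 0.13, unadjusted p = 0.00615, adjusted p = 0.343) and Ptgs1 at 34.1, 32.7, and 41.9 CPM (0.42, 95% interval −0.098 to 0.94). Without 3′SL library 3, these log2 changes were 0.24 and 0.27. Hpgds was at 171, 187, and 85.5 CPM, where set 3 was again apart, here on the low side, and its log2 fold change was −0.35. Alox5 (−0.03) and Ltc4s (−0.41) were at 1.04 to 2.31 and 0.914 to 1.51 CPM. The blocked calls of Pla2g4a and Ptges held when set 3 was left out (adjusted p = 0.000325 and 0.0222) and were lost without set 1 or without set 2 (adjusted p of 0.0795 to 0.199). The log2 changes without set 1 and without set 2 were 1.07 and 1.05 for Pla2g4a and 0.92 and 1.24 for Ptges.

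During LPS stimulation, the COX-2 gene and the prostaglandin E synthase gene lay lower with 3′SL than without it in each library set. Neither passed the main test, which does not take the sets into account. None of the 10 genes was called in LPS + 3′SL against LPS, where 0% of all genes were. At an unadjusted p under 0.05, 1 gene remained (Ptgs2), against 6.95% of all genes, and DESeq2 called none of the 10, against 0.792% of all genes. With the library set as a block, 1 was called (Ptges), against 1.45% of all genes. The libraries of the conditions did not overlap for 3 of the 10, with Ptgs2 and Ptges lower and Alox5ap higher, against 12.7% of all genes in either direction. The median log2 change of the 10 genes was 0.015, against −0.0079 over all genes.

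Ptgs2 stood at 92.8, 124, and 249 CPM with LPS + 3′SL, that is 23.0%, 23.1%, and 39.6% of the LPS library of the same set. The log2 fold change was −1.75 ± 0.64 (unadjusted p = 0.0192, adjusted p = 0.549, 95% interval −3.16 to −0.35), and −1.87 with the set block (adjusted p = 0.0545). Ptgs2 was singled out in the study on these libraries, so its direction here is not independent evidence. The study lists it among genes lowered by 3′SL under LPS at 1.5-fold and an FDR below 0.05, a call not made here. The study's figure legend for these gene sets instead gives P below 0.05, naming no adjustment, and more than 1.5-fold. The unadjusted edgeR p and fold change of Ptgs2 here would meet that rule. The study also reports qPCR of inflammatory marker genes. Ptgs2 was still attenuated there in macrophages lacking LXR or with SREBP activation knocked down. Those experiments were not examined here. Ptges stood at 137, 116, and 213 CPM, or 61.2%, 54.1%, and 61.9% of the LPS library of its set. Its log2 fold change was −0.75 ± 0.42 (adjusted p = 0.835, 95% interval −1.67 to 0.17), and −0.77 ± 0.15 with the set block, where it passed (adjusted p = 0.0217). The blocked call of Ptges was lost without set 1 (log2 fold change −0.80, adjusted p = 0.39) or set 2 (−0.70, adjusted p = 0.133). Without set 3 both genes passed, Ptgs2 with a log2 fold change of −2.11 (adjusted p = 0.000758) and Ptges with −0.79 (adjusted p = 0.000442).

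None of the other 8 genes passed in LPS + 3′SL against LPS with edgeR, DESeq2, or the set block. Pla2g4a, at 189, 217, and 277 CPM, was at 88.8%, 85.8%, and 83.0% of the LPS library of the same set (log2 fold change −0.23, 95% interval −0.73 to 0.28). Ptger4, at 48.2, 62.8, and 76.8 CPM, was at 91.5%, 93.7%, and 83.2% (−0.17, 95% interval −0.96 to 0.61). Ptgs1 had 13.7, 13.7, and 22.5 CPM, almost the values with LPS alone, and the interval of its log2 change ran from −0.53 to 0.53. The Ptgs2 to Ptgs1 ratio was lower by −1.84 on the log2 scale with LPS + 3′SL than with LPS, and its libraries did not overlap, for which 3 against 3 libraries allow no exact permutation p below the observed 0.1 (0.3 after adjustment over 3 ratios). Hpgds had 90.2, 91.0, and 61.8 CPM (0.03, 95% interval −0.59 to 0.66) and Alox5ap 183, 183, and 177 CPM (0.13, 95% interval −0.16 to 0.41). Ptger2 (4.90, 5.15, and 10.7 CPM), Alox5 (0.825, 2.02, and 5.20 CPM), and Ltc4s (1.31, 1.10, and 1.66 CPM) overlapped their values with LPS.

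**Figure D4:**
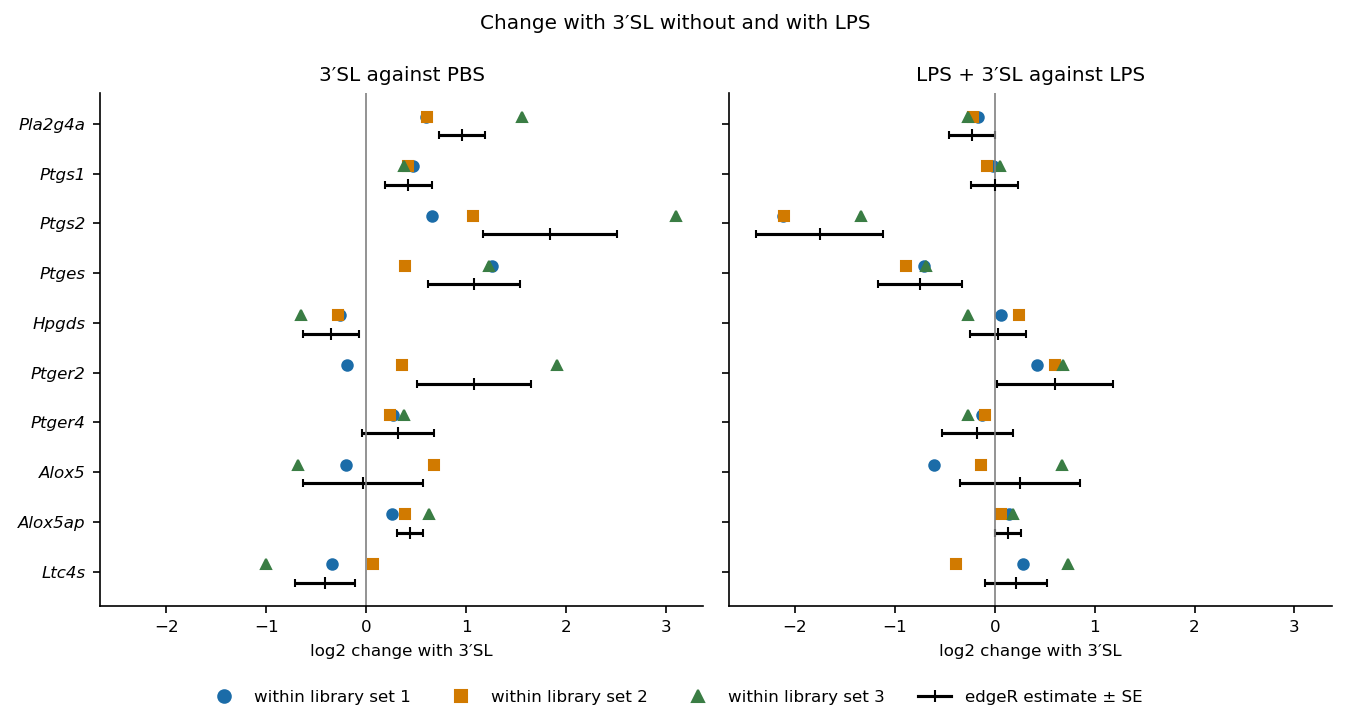
Log2 change of each gene with 3′SL (horizontal axis) without LPS (left) and with it (right). Symbols are the changes within the 3 library sets, which carry no error, and black bars the edgeR estimate ± SE with 3 libraries per condition. The 3 symbols of Ptgs2 lie at 0.66 to 3.10 on the left and at −2.12 to −1.34 on the right.

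Whether LPS acted differently in the presence of 3′SL was tested as the interaction of both treatments, which is the log2 change with 3′SL under LPS minus that without LPS. None of the 10 genes was called, where 0% of all genes were. At an unadjusted p under 0.05, 3 remained (Ptgs2, Ptges, and Pla2g4a), against 6.09% of all genes. DESeq2 called 1 (Ptgs2, adjusted p = 0.0188), against 0.308% of all genes, and the fit with the set block called 3 (Ptgs2, Ptges, and Pla2g4a), against 1.55% of all genes. The interaction of Ptgs2 was −3.59 ± 0.93 (adjusted p = 0.579), with −2.78, −3.18, and −4.44 within sets 1 to 3, and −3.47 with the block (adjusted p = 0.0307). For Ptges it was −1.83 ± 0.62 (adjusted p = 0.711), with −1.97, −1.28, and −1.93 within sets and −1.80 with the block (adjusted p = 0.00946). For Pla2g4a it was −1.19 ± 0.33 (adjusted p = 0.593), with −0.77, −0.83, and −1.83 within sets and −1.13 with the block (adjusted p = 0.0309). All 3 blocked calls held without set 3 (adjusted p of 0.000611 to 0.00955) and were lost without set 1 or without set 2 (0.0713 to 0.355), where the values were −4.19 and −3.40 for Ptgs2, −1.72 and −1.95 for Ptges, and −1.32 and −1.28 for Pla2g4a. Without 3′SL library 3 alone, the interaction was −2.60 for Ptgs2, −1.20 for Ptges, and −0.88 for Pla2g4a. Ptger4 had an interaction of −0.49 (adjusted p = 0.929), which did not pass with the block either (adjusted p = 0.334). In each set, these 4 genes lay higher with 3′SL than without it in cells not given LPS, and lower with 3′SL in cells given LPS, a pattern that 6.74% of all genes showed.

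Beyond the 10 genes, 65 other genes of the pathway were listed and 46 passed the filter on low counts. With LPS against PBS, 20 of the 46 were called, 10 higher and 10 lower, against 5502 of all 14308 genes tested. With total counts, 22 of the 46 were called, 6 higher and 16 lower, against 8192 of all genes. The median log2 change of the 46 was 0.045, against −0.061 over all genes. The largest rise was that of Fpr2, a formyl peptide receptor that also binds annexin A1, from a mean of 2.73 to 255 CPM (log2 fold change 6.56 ± 0.57, adjusted p = 7.17e-06). Cmklr1, the chemerin receptor, went from 25.5 to 134 CPM (2.39, adjusted p = 8.31e-05), and Cysltr2, a receptor for cysteinyl leukotrienes, from 0.779 to 6.52 CPM (3.05, adjusted p = 0.000159). Lpcat2, which puts fatty acids back into phospholipids and makes platelet-activating factor, rose by 2.19 (adjusted p = 0.00145), Pla2g4c by 1.38 (adjusted p = 0.00172), and Abhd16a, a phosphatidylserine lipase, by 1.20 (adjusted p = 2.83e-06). Alox12, a platelet-type lipoxygenase, was also called higher, at 0.953 CPM with LPS, but its PBS mean of 0.0567 CPM lies under the 0.0861 to 0.184 CPM that 3 reads are worth, so no fold is given. The secreted phospholipases Pla2g2e (log2 fold change −3.13, adjusted p = 0.00154) and Pla2g5 (−2.01, adjusted p = 0.00652) fell. Their means went from 2.19 and 1.62 CPM with PBS to 0.248 and 0.399 CPM with LPS. These LPS means are not far above the worth of 3 reads, so the size of both folds is uncertain. Daglb, the diacylglycerol lipase of macrophages, also fell, from 121 to 34.3 CPM (−1.82, adjusted p = 3.74e-06).

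**Figure D5:**
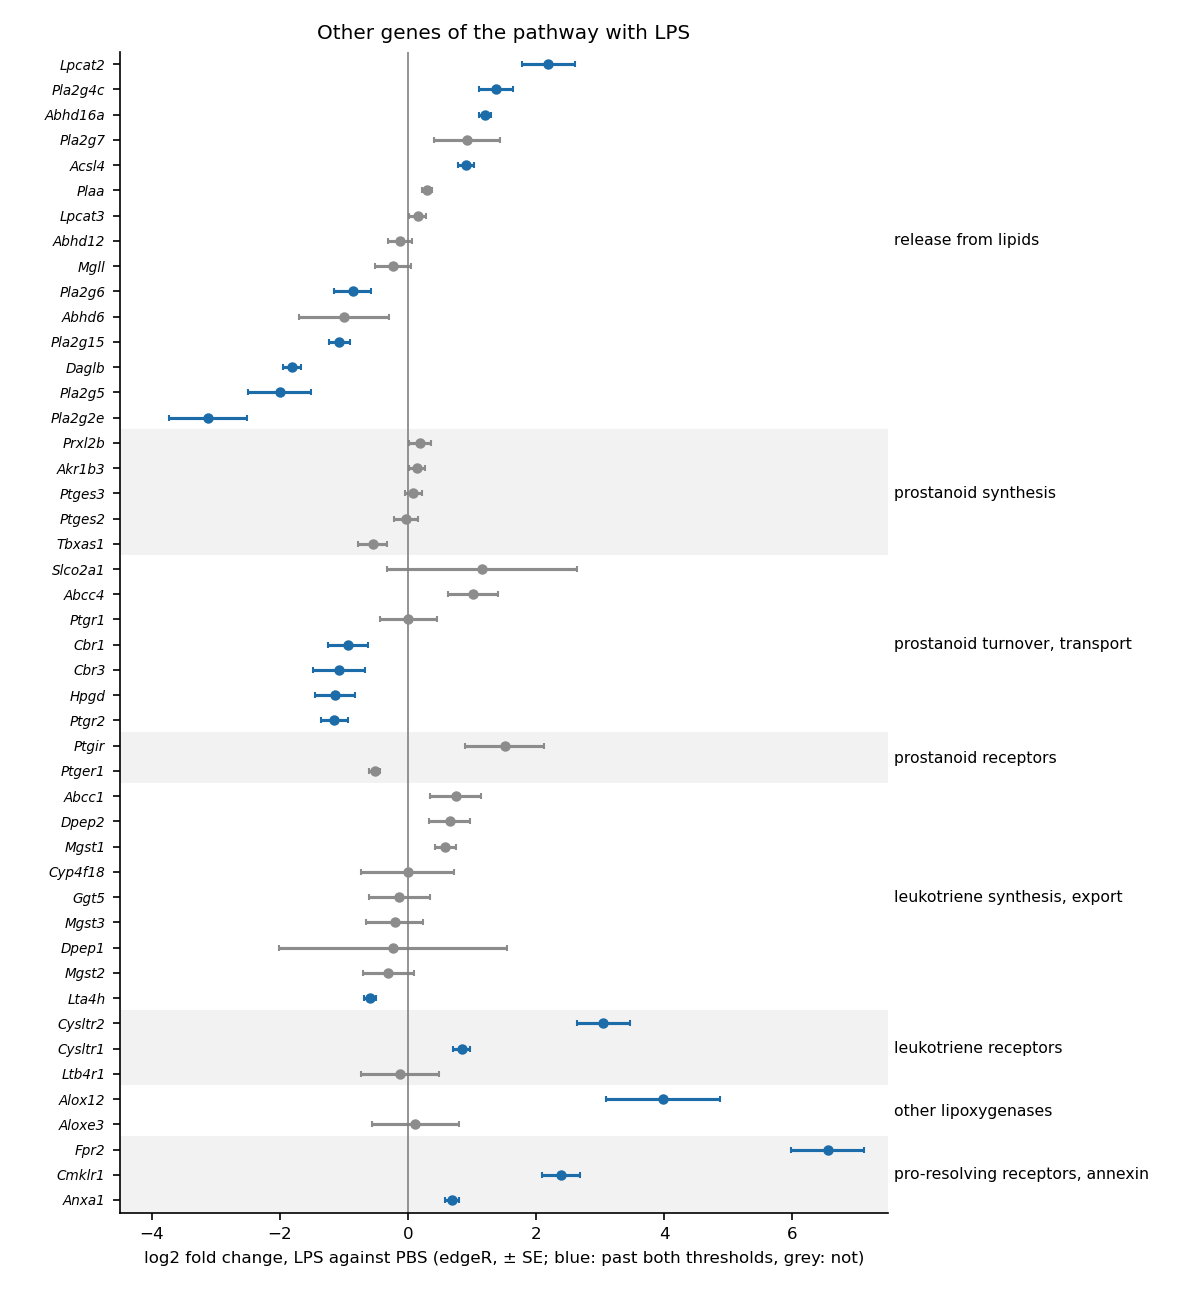
Log2 fold change with LPS against PBS (horizontal axis, edgeR estimate ± SE, 3 libraries per condition) of the 46 other pathway genes tested, grouped by role. Blue points passed both thresholds, 10 of them higher and 10 lower, and grey points did not. Of all genes, 18.3% rose and 20.2% fell by the same rule. None of the 5 other prostanoid synthesis genes passed.

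With LPS + 3′SL against 3′SL, 14 of the 46 were called, 8 higher and 6 lower. Of all genes, 14.3% were called higher and 14.8% lower. With total counts, under which the median of all genes was −0.54, 18 were called, 5 higher and 13 lower. Of all 14308 genes tested, 1350 were then called higher and 4856 lower. With TMM factors, Fpr2 (5.24 ± 0.54), Cysltr2 (2.80 ± 0.42), Cmklr1 (1.72 ± 0.29), Abhd16a (1.10 ± 0.089), and Pla2g4c (1.01 ± 0.27) rose on the log2 scale. Alox12 was called higher as well. Pla2g2e (−2.11 ± 0.58, at a mean of only 0.310 CPM with LPS + 3′SL) was called lower. Hpgd (−1.17 ± 0.31), whose product inactivates prostaglandin E2, was called lower too. Ptgr1, a prostaglandin reductase gene, was also called (−1.26 ± 0.45), with changes of −0.28, −0.23, and −2.36 within sets 1 to 3, and its changes in 3′SL against PBS were 0.29, 0.27, and 2.73. Cbr3, a carbonyl reductase gene, was called as well (−2.13 ± 0.41), with −1.52, −1.21, and −3.03 within sets. The adjusted p of the genes named in this comparison ranged from 8.4e-06 (Abhd16a) to 0.0497 (Ptgr1).

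With 3′SL alone, none of the 46 was called by edgeR, where 0% of all genes were. At an unadjusted p under 0.05 there were 10, against 10.1% of all genes. DESeq2 called 3 (Daglb, Acsl4, and Cbr3), against 0.617% of all genes. The set block called 5 (Daglb, Lpcat2, Cbr3, Abcc1, and Ggt5), against 2.84% of all genes. Under edgeR without the block, Daglb was at a mean of 76.1 CPM with 3′SL against 121 with PBS (log2 fold change −0.67, adjusted p = 0.258), and Cbr3 at 23.3 against 8.33 CPM (1.48, adjusted p = 0.323). Abcc1, an exporter of leukotriene C4, was at 576 against 258 CPM (1.16, adjusted p = 0.41). In LPS + 3′SL against LPS, none of the 46 was called by edgeR, DESeq2, or the set block. These called 0%, 0.792%, and 1.45% of all genes. Under an unadjusted p of 0.05 there were 2 (Lta4h and Mgst2), against 6.95% of all genes. For the interaction, none of the 46 was called by edgeR, where 0% of all genes were. At an unadjusted p under 0.05 there were 4, against 6.09% of all genes. DESeq2 called 1 (Daglb), against 0.308% of all genes, and the set block 3 (Daglb, Lpcat2, and Fpr2), against 1.55%.

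The genes whose pattern was most like that of Ptgs2 were sought among 8040 genes with a mean of at least 10 CPM, by the root mean square difference of centred log2 CPM over the 12 libraries. They were Cxcl3, a neutrophil-attracting chemokine (0.57), Traf1, an adaptor of TNF receptors (0.64), and Ptges itself (0.69), against a median of 2.99 over all genes compared. Mean levels of Cxcl3 were 0.417, 2.76, 81.5, and 16.1 CPM in the vehicle, 3′SL, LPS, and LPS + 3′SL libraries. For Alox5 they were Sorl1 (0.40), S100a9 (0.42), and S100a8 (0.42), against a median of 0.746. S100a8 and S100a9 are abundant in neutrophils, and LPS + 3′SL library 3, which held the highest Alox5 value (5.20 CPM), had a summed neutrophil marker level of 936 CPM. The highest sum, 1015 CPM, was in LPS library 3, where Alox5 was at 3.25 CPM. The 8 neutrophil markers summed to 139 to 547 CPM with PBS, 152 to 302 with 3′SL, 221 to 1015 under LPS, and 219 to 936 where both were given, and none of them was at 0 in every library. Most of the sum came from Ngp, Ltf, S100a8, and S100a9, whose means, like that of Camp, were higher with LPS than with PBS. Ly6g was at most 1.18 CPM, with means of 0.392 with PBS and 0.494 with LPS. In the same order, means were 1.85 and 1.71 CPM for Mpo and 0.940 and 0.664 CPM for Elane. Their part in the Alox5 values was not tested.

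Hpgds, Alox5, and Ltc4s are also expressed by mast cells, whose defining genes Fcer1a, Mcpt4, Tpsb2, and Cma1 had no read in any of the 12 libraries. Of the other 4 mast cell markers, Cpa3 and Ms4a2 were under 0.25 CPM everywhere and Kit at 0.138 to 1.58 CPM, whereas Hdc, the histidine decarboxylase that activated macrophages also make, went from means of 1.15 and 1.04 CPM with PBS and 3′SL to 53.4 CPM under LPS, or 31.8 CPM where 3′SL was added. For platelets and their precursors, which carry much Ptgs1, 3 of the 6 markers were under 1 CPM everywhere, and Pf4, which macrophages also express, stood at 310 to 569 CPM. Ppbp stood at 4.39 to 13.5 CPM, and Itgb3 had means of 15.3 CPM with PBS, 21.8 with 3′SL, 5.89 under LPS, and 6.79 where both were given. The part of these markers in the Ptgs1 values was not tested.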

How the data were processed

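Each of the 4 conditions had 3 RNA-Seq libraries of mouse BMDMs. The labels gave the condition, and doses and time come from the study's description, since the labels' own treatment text describes injected mice. The files deposited by the authors hold raw counts of reads on genes, which are whole and not normalized. The submitters' processing notes name FastQC, Trimmomatic, STAR, HTSeq, and DESeq2 without versions, and the genome build and the strand setting of the counting are not given in the sources used here. Gene identifiers were matched to GENCODE M21 of GRCm38, which gave 42462 names. Rows that name no gene were left out of library sizes (reads on no feature were 6.29% to 8.48% of reads, and 650254 to 869895 reads were ambiguous). At 20411741 to 26851890 counted reads per library, 3 reads are worth 0.0861 to 0.184 CPM, a floor for counting error alone.

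The fit was made with edgeR 4.0.16 under R 4.3.3 (TMM factors, filterByExpr by condition, quasi-likelihood fit with 1 mean per condition over all libraries). Calls needed an adjusted p (Benjamini-Hochberg over all 14308 genes) below 0.05 and no less than a 1.5-fold change. CPM uses TMM-scaled library sizes, and intervals are 95%. Ratios used counts with 0.5 added and 2-sided exact permutation tests over libraries. Libraries of a condition were compared in pairs by chi-square per gene, and none agreed within sampling noise. Pairs with a set 3 library differed most in each condition. Residual clustering gave the 3 library sets, used as a block in an alternative fit. Other alternatives were DESeq2 1.42.0 size factors, DESeq2's own test, total counts, no filter beyond 1 read, only the conditions compared, no fold minimum, and leaving out each library, and, chosen after seeing the data, the block with total counts or without a set. The edgeR fit was tried on counts simulated with 1 dispersion for all genes and without library sets, unlike these data. The permutation calculation was checked on fixed, fully separated values, for which the smallest possible p is known in advance.

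All 10 members are named. Other pathway genes are named if called, at most 10 per comparison by size of change. Beyond this rule, Ptger1 and those under other call rules with 3′SL are given by name only or with values. These were chosen after their values were seen. The members, the lists, and the use of library sets were chosen with earlier results of these data known. Marker lists covered macrophages, mast cells, basophils, neutrophils, megakaryocytes, stromal and dendritic cells, and B and T cells. Summed markers were at most 2.96 CPM for basophils, 16.3 CPM for dendritic cells, and 0.322 CPM for B and T cells in any library.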

Additional observations from a re-analysis of the deposited data

Results flagged for a closer look

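For 4 genes, the change with 3′SL had opposite signs without and with LPS in every library set, higher than PBS in all 3 sets without LPS and lower than LPS alone in all 3 sets with it. Of all 14308 genes tested, 6.74% showed this pattern. The difference between these changes was tested as the interaction by edgeR, on the log2 scale. It was −3.59 for Ptgs2 (adjusted p = 0.579), −1.83 for Ptges (adjusted p = 0.711), −1.19 for Pla2g4a (adjusted p = 0.593), and −0.49 for Ptger4 (adjusted p = 0.929), so none passed. With the library set as a block, the first 3 passed (adjusted p = 0.0307, 0.00946, and 0.0309) and Ptger4 did not (0.334). In cells not given LPS, all 4 were highest in 3′SL library 3, at 26.5 CPM for Ptgs2, 9.78 for Ptges, 116 for Pla2g4a, and 27.8 for Ptger4. Il1b, a cytokine gene that LPS induces, was also highest in that library among those not given LPS, with 450 reads against 69 to 164 in the others. Without that library alone, the interaction was −2.60 for Ptgs2, −1.20 for Ptges, −0.88 for Pla2g4a, and −0.016 for Ptger4. When each of the 12 libraries was left out in turn, it ranged from −4.22 to −2.60 for Ptgs2, −2.23 to −1.20 for Ptges, −1.35 to −0.88 for Pla2g4a, and −0.86 to −0.016 for Ptger4, and none of these passed. With the block and without set 3, it was −2.81 for Ptgs2, −1.68 for Ptges, and −0.78 for Pla2g4a.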

How the results depend on the processing

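Of 850 recomputed log2 changes of single members, 765 kept their direction and side of the threshold, 10 lost a call, 36 gained one, and 39 changed sign. The counts called with LPS against PBS stayed within 1.5 times of 6 and 20. For LPS + 3′SL against 3′SL, the other pathway genes went from 14 to 22 with the block and total counts. For 3′SL against PBS, where edgeR called none, the members called were 1 with DESeq2 and 2 with the block, with the block without set 3, and with the block and total counts, and the other genes 3, 5, 5, and 4. For LPS + 3′SL against LPS, the members called were 1 with the block, 2 without set 3, and 1 with the block and total counts, and the other genes 1 with the block without set 3. For the interaction, the members called were 1 with DESeq2 and 3 in each of these block fits, and the other genes 1 with DESeq2 and 3, 5, and 3. Blocked calls of 3′SL effects were lost without set 1 or set 2, where the log2 values kept their direction. The cause of these differences was not tested.

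With LPS against PBS, Alox5 was −0.19 with total counts and −0.23 with the block too. With LPS + 3′SL against 3′SL, Alox5 was −0.21 with the block without set 3, and Ltc4s −0.38 with total counts, −0.36 with the block too, and −0.18 with the block without set 3. With 3′SL against PBS, Alox5 was 0.096 with the block without set 1 and 0.23 without set 3. With LPS + 3′SL against LPS, Ptgs1 was 0.078 with total counts, 0.012 with all genes and with only the conditions compared, 0.024 with the block without set 2, and 0.076 with the block and total counts. Hpgds was −0.0028 with the block, −0.037 without set 1, and −0.11 without set 2, while Alox5 was −0.32 and Ltc4s −0.055 without set 3. Without set 3, the interaction was 0.42 for Ptger2 and −0.55 for Alox5.

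When single libraries were left out, the sign changed within these ranges. For 3′SL against PBS, they were −0.43 to 0.23 for Alox5, −0.0083 to 1.49 for Ptger2, and −0.16 to 0.69 for Ptger4. For LPS + 3′SL against 3′SL, they were −0.12 to 1.21 for Alox5 and −0.040 to 0.29 for Ltc4s. For LPS + 3′SL against LPS, they were −0.65 to 0.68 for Alox5, −0.059 to 0.20 for Hpgds, −0.35 to 0.066 for Ptger4, and −0.28 to 0.23 for Ptgs1. For the interaction, they were −0.62 to 0.72 for Alox5 and −0.93 to 0.61 for Ptger2. The log2 ratio of Alox5ap to Alox5 ranged from −1.40 to −0.87.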
